A study of Mus musculus with 39 samples.

Results

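Collagen genes were taken as every gene of the deposited tables whose symbol reads Col, a number, the letter a and a second number, which selects the chains of the collagen superfamily. The rule found 44 genes among the 50559 of the basolateral amygdala (BLA) table and the same 44 among those of the hippocampal table. All 44 passed the filter on low counts in both tissues. They divide by known structure into 11 fibrillar chains, 6 basement membrane chains of type IV, 2 multiplexins, 6 chains of type VI, 3 short chain network collagens, 9 fibril-associated collagens with interrupted triple helices (FACIT), 4 transmembrane collagens and 3 others.

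RNA was sequenced in bulk from female mice, aged 9 months, of a study of combined amyloid and tau pathology. The APP/Tau animals came from crossing line J9 (human APPSw,Ind) with line PS19 (human Tau P301S) on a C57BL/6 background, and additionally had CaMKIIαCre and RiboTag. WT mice with CaMKIIαCre and RiboTag are the controls, so these alleles are shared by all groups. CaMKIIαCre acts in glutamatergic forebrain neurons, but only the RiboTag input was sequenced, that is, the cleared lysate without a pull-down, to which all cells of the tissue contribute. Training was a tone that ended with a footshock, and trained mice were killed 1 h after it. Naive mice were not conditioned. For the BLA there are 5 APP/Tau naive, 4 APP/Tau trained, 5 control naive and 5 control trained libraries. For the hippocampus the numbers are 5 APP/Tau naive, 4 APP/Tau trained, 5 control naive and 6 control trained. BLA tissue was taken with a 1 mm punch, 4 punches to a mouse, and 10 ng of RNA entered each library, whereas the hippocampus was dissected with a scalpel and gave 50 ng to each library.

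Collagens are built of 3 chains wound into a triple helix, which needs glycine at the start of each Gly-X-Y triplet of residues. Fibrillar collagens form the fibres of the meninges and of vessel walls, type IV chains form the sheet under endothelium and around astrocyte endfeet, and type VI forms beaded filaments beside basement membranes. FACIT chains sit on fibril surfaces, and the transmembrane collagen Col25a1 is made by neurons. The shed part of its protein was first isolated from amyloid plaques as the collagenous amyloid component CLAC.

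The glycine rhythm that defines the family can be read in the coding sequence, as GGN codons 3 codons apart. A script read the coding sequences of all 44 genes from the GENCODE M21 transcripts (GRCm38) and counted runs of at least 3 such triplets. These runs take from 8.12% of the codons of Col12a1 to 85.6% of those of Col9a3 (median 62.3%). The longest run is 344 triplets in Col3a1 and 23 in Col26a1. The fibrillar chain Col1a1 holds 1 unbroken run of 338 triplets, while Col4a4 splits 428 triplets over 27 runs, the longest of 45. The FACIT chain Col16a1 has 332 triplets in 23 runs, and Col9a1, Col9a2 and Col9a3 each have a longest run of 113. Below are stretches of genes on which the results turn, 5′ to 3′ on the coding strand, with the GGN codons that start a repeat triplet in capitals; glycine codons elsewhere are in lower case. They are codons 168 to 197 of Col1a1 (chromosome 11), 823 to 852 of Col4a4 (chromosome 1), 1006 to 1035 of Col16a1 (chromosome 4), 177 to 206 of Col9a3 (chromosome 2) and 185 to 214 of Col25a1 (chromosome 3). A second stretch of Col4a4, codons 156 to 184, shows an interruption, where 5 codons break the rhythm between the capitals.
Col1a1: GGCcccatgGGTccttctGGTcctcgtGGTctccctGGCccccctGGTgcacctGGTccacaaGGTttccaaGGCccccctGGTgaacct
Col4a4: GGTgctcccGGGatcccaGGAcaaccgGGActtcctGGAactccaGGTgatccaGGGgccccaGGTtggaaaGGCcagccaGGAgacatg
Col4a4 across a break: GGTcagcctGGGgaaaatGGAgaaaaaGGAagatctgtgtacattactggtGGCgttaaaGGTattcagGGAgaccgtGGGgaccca
Col16a1: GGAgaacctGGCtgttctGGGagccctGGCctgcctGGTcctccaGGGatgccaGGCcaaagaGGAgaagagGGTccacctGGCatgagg
Col9a3: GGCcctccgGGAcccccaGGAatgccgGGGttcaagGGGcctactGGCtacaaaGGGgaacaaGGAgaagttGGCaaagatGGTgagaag
Col25a1: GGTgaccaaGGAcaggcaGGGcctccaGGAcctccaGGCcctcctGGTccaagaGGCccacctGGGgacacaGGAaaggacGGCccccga

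BLA libraries held 50.3 to 74.3 M counts and hippocampal libraries 92.1 to 128 M counts, and the 44 genes together took 299 to 428 CPM (counts scaled to a library total of 1 M) in the BLA and 306 to 493 CPM in the hippocampus. Counts of Prnp, whose promoter drives the tau transgene of the PS19 line, separated the genotypes in both tissues: 1113 to 1658 CPM in APP/Tau BLA against 752 to 1008 CPM in control BLA, and 1711 to 2220 CPM in APP/Tau hippocampus against 682 to 948 CPM in control hippocampus. The tissue labels were set against neuron markers. Summed over 8 hippocampal neuron genes, BLA libraries hold 386 to 617 CPM and hippocampal libraries 522 to 1273 CPM. The 6 BLA neuron genes sum to 735 to 3630 CPM in the BLA and 935 to 1733 CPM in the hippocampus, so neither sum fully separated the tissues. Of the 8 hippocampal neuron genes, Wfs1 alone had higher means in the BLA (404 CPM in APP/Tau, 358 CPM in control) than in the hippocampus (98.4 and 128 CPM). Dsp, for example, had means of 0.247 and 0.350 CPM in the BLA against 30.6 and 46.4 CPM in the hippocampus. Markers of striatum and central amygdala, which lie beside the BLA, sum to 510 to 4780 CPM in BLA libraries, so their level varied widely between punches. 2 hippocampal control libraries, trained replicate 1 and naive replicate 1, hold more than 5 times the hippocampal median of 18S ribosomal RNA. Results that change without them are given beside them. The labels list replicates as separate samples. Every change given is a log2 fold change ± its standard error from edgeR's quasi-likelihood F test (2-sided), and calls are made at an adjusted p below 0.05 over all genes. Levels are CPM scaled by TMM.

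In the hippocampus of APP/Tau mice 7 collagen genes rose over the mean of naive and trained mice and none fell. They are Col16a1, Col9a2 and Col9a3 of the FACIT group, Col4a4 and Col4a5 of the type IV chains, and the fibrillar chains Col5a3 and Col27a1. That is 15.9% of the 44 genes, beside 11.1% of all 25791 genes tested (7.27% up and 3.80% down). The most abundant basement membrane chains, Col4a1 and Col4a2, and the neuronal genes Col19a1 and Col25a1 did not pass the test. Of the 44 genes, 36 had a fold change above 0. The median of the 44 was 0.28, beside a median of -0.001 over all genes tested.

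**Figure D1:**
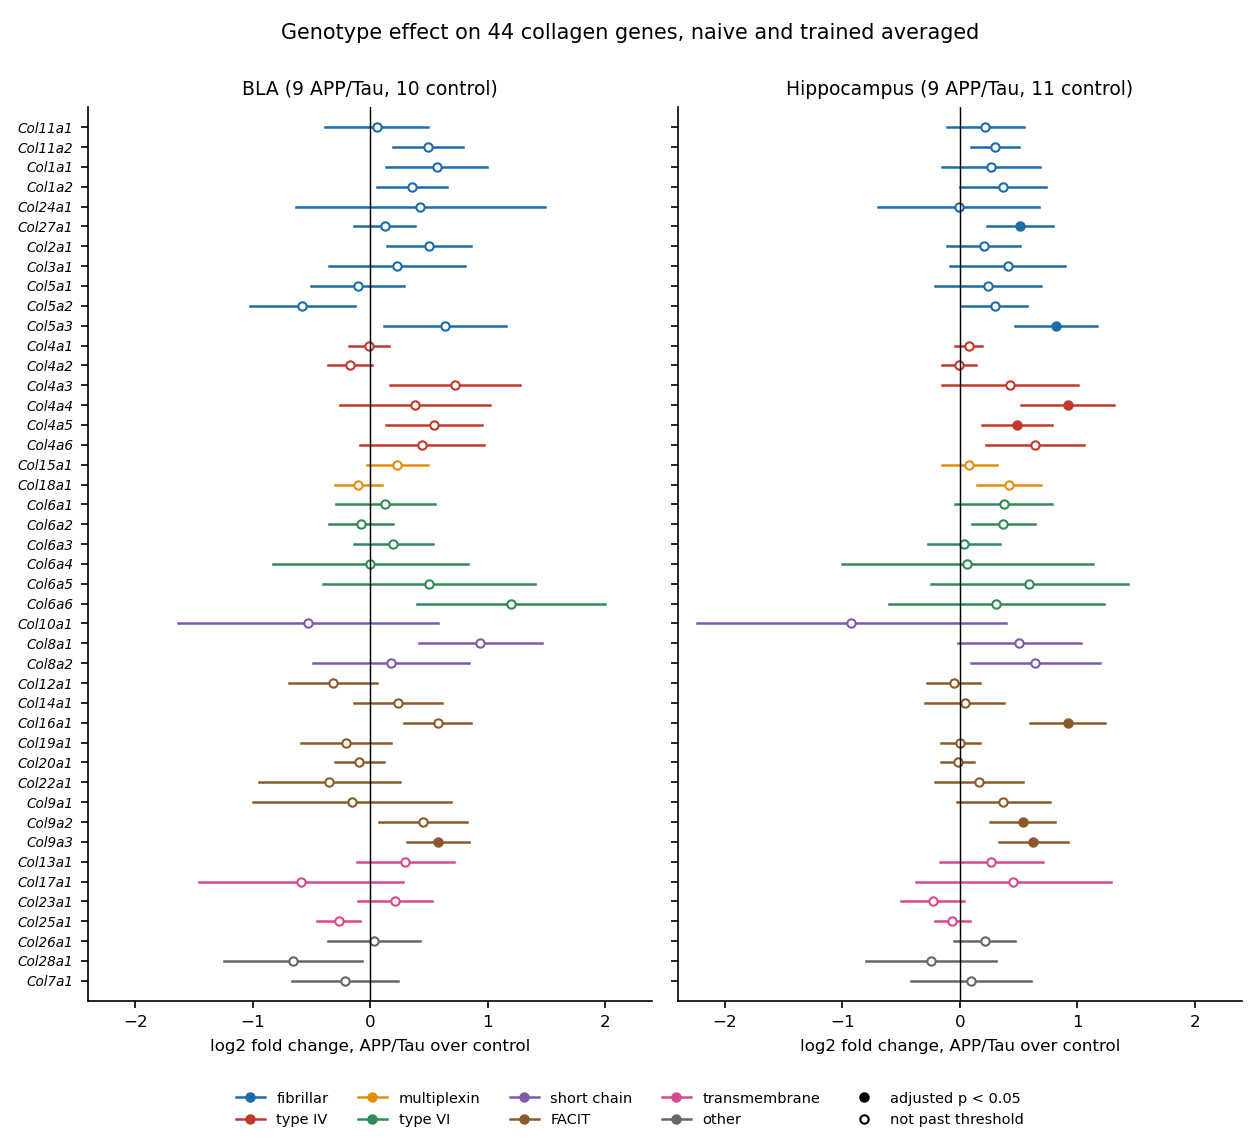
Log2 fold change of each of the 44 collagen genes, APP/Tau over control, with 95% intervals, in the BLA (left) and the hippocampus (right); colours mark the collagen type and filled points an adjusted p below 0.05. In the hippocampus 36 of 44 points lie above 0 and 7 are filled; in the BLA 28 of 44 lie above 0 and 1, Col9a3, is filled.

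Col16a1, a chain that sits beside fibrils and basement membranes in many tissues, had the smallest p of the family. Its level was 15.9, 16.97, 11.4, 9.86 and 16.3 CPM in the 5 naive APP/Tau hippocampi and 31.3, 10.2, 25.2 and 18.3 CPM in the 4 trained ones. Control hippocampi held 9.61, 9.83, 8.33, 6.496 and 9.33 CPM when naive, and 7.80 to 12.99 CPM (median 8.94) when trained. Trained replicates 1 and 3 were the highest APP/Tau libraries, 6 of 9 APP/Tau libraries lay above the highest control, and the ranges overlapped. The change was 0.92 ± 0.16 (edgeR adjusted p = 0.00177), a 1.89-fold difference between 17.3 ± 7.10 CPM in APP/Tau mice (SD, n = 9) and 9.21 ± 1.80 CPM in control mice (SD, n = 11).

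Col9a2 and Col9a3 encode 2 of the 3 chains of type IX collagen, best known from the surface of cartilage fibrils. Col9a3 stood at 16.4, 14.8, 22.1, 13.2 and 26.8 CPM in naive APP/Tau hippocampi and at 26.5, 17.1, 27.8 and 14.6 CPM in trained ones. Its controls had 12.6, 15.7, 14.6, 10.48 and 15.3 CPM when naive and 8.26 to 16.8 CPM (median 12.0) when trained. 5 of 9 APP/Tau libraries exceeded every control. Col9a3 rose by 0.63 ± 0.15 (edgeR adjusted p = 0.0131). For Col9a2 the lowest, median and highest levels were 4.79, 6.34 and 11.3 CPM in 9 APP/Tau mice against 3.62, 4.84 and 6.79 CPM in 11 controls, a rise of 0.53 ± 0.14 (edgeR adjusted p = 0.0223). The call on Col9a2 ends without APP/Tau trained replicate 1 or without APP/Tau trained replicate 3. The remaining chain of the trimer, Col9a1, was low, and its change of 0.37 ± 0.20 did not pass (edgeR adjusted p = 0.240). Col9a3 shares 234 exon bases with Tcfl5 on the opposite strand, and whether the counting used strand is not given in the sources used here. Tcfl5 changed by 0.45 ± 0.23 in the hippocampus (edgeR adjusted p = 0.207).

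The 6 type IV genes did not move as a block. Col4a4, a chain of the specialised network known from kidney and inner ear, had 1.25, 1.30, 1.99, 1.39 and 2.65 CPM in naive APP/Tau hippocampi and 1.59, 1.64, 2.56 and 1.11 CPM in trained ones. Naive controls had 0.879, 1.31, 1.06, 0.671 and 1.79 CPM, and trained controls 0.551 to 1.07 CPM (median 0.681). The lowest APP/Tau library thus lies within the control range. Col4a4 rose by 0.92 ± 0.20 (edgeR adjusted p = 0.00755). Col4a5, the X-linked chain that pairs with Col4a6 in smooth muscle and other membranes, had a lowest, median and highest level of 2.88, 3.89 and 7.74 CPM in APP/Tau mice and 2.55, 3.45 and 4.03 CPM in controls. It rose by 0.48 ± 0.15 (edgeR adjusted p = 0.0466), a call that ends in 12 of the 20 fits that each leave out 1 library. Without the libraries rich in 18S RNA its adjusted p was 0.0962.

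Col4a1 and Col4a2, which make the common network of all vessels, did not pass. Col4a1 measured 33.5, 37.3 and 41.0 CPM (lowest, median, highest) in APP/Tau mice and 31.2, 34.5 and 44.8 CPM in controls, a change of 0.07 ± 0.06 (edgeR adjusted p = 0.421). Col4a2 measured 28.0, 32.4 and 37.7 CPM in APP/Tau mice and 28.4, 33.1 and 43.0 CPM in controls, with a change of -0.01 ± 0.07 (edgeR adjusted p = 0.968). The 95% interval of Col4a2 runs from -0.15 to 0.14 and that of Col4a1 from -0.04 to 0.19. Col4a3 gave 0.43 ± 0.30 and Col4a6 0.64 ± 0.21 (edgeR adjusted p = 0.364 and 0.0570).

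Among the 11 fibrillar chains, 2 rose, and 10 had a fold change above 0. Col5a3, a chain of type V collagen, which nucleates fibrils, had 1.84, 1.70, 1.44, 2.33 and 3.603 CPM in naive APP/Tau hippocampi and 3.73, 1.84, 2.36 and 1.86 CPM in trained ones. Its controls held 1.06, 1.52, 1.51, 1.47 and 0.816 CPM when naive and 0.950 to 1.55 CPM (median 1.38) when trained. 8 of 9 APP/Tau libraries lay above every control library, the clearest separation in the called genes, and the change was 0.82 ± 0.18 (edgeR adjusted p = 0.00728). Col27a1, a fibrillar collagen of cartilage, had 5.13, 7.94 and 12.2 CPM (lowest, median, highest) in APP/Tau mice against 5.02, 5.93 and 8.07 CPM in controls. It rose by 0.51 ± 0.14 (edgeR adjusted p = 0.0272), and the call ends without any of APP/Tau trained replicate 1, APP/Tau trained replicate 3, APP/Tau naive replicate 5 or control naive replicate 3.

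The interstitial collagens of fibroblasts did not pass. Col1a1 gave 0.27 ± 0.21, Col1a2 0.37 ± 0.19 and Col3a1 0.41 ± 0.25 (edgeR adjusted p = 0.439, 0.206 and 0.298). Col1a1 measured 5.62, 7.62 and 16.2 CPM (lowest, median, highest) in APP/Tau mice and 4.48, 7.79 and 14.6 CPM in controls, so the medians were close and the highest value came from APP/Tau trained replicate 1. Col1a2 measured 9.46, 13.6 and 28.6 CPM in APP/Tau mice and 7.66, 11.1 and 22.5 CPM in controls. For Col3a1 the values were 1.64, 3.14 and 4.96 CPM in APP/Tau mice and 1.16, 2.50 and 4.81 CPM in controls.

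**Figure D2:**
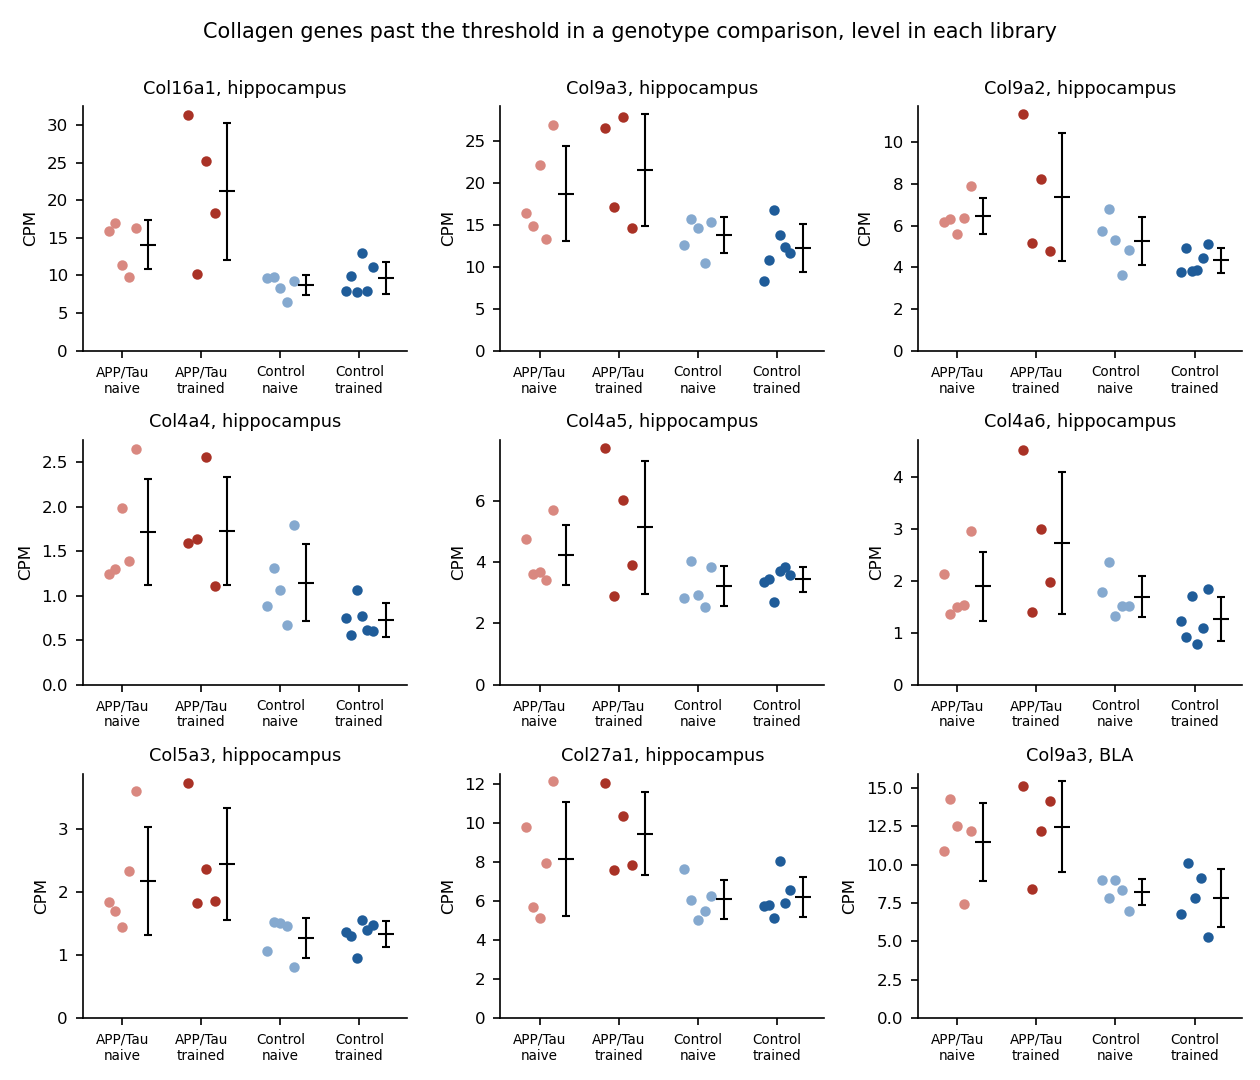
CPM of the 8 collagen genes past the threshold in a hippocampal genotype comparison, and of Col9a3 in the BLA, with 1 point per library in APP/Tau naive, APP/Tau trained, control naive and control trained mice; bars give the mean and SD of each group. In Col16a1 the trained APP/Tau libraries reach 31.3 CPM, while no control exceeds 12.99 CPM.

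No gene of type VI (0 of 6), the multiplexins (0 of 2), the short chain network (0 of 3), the transmembrane collagens (0 of 4) or the others (0 of 3) passed in the hippocampus. Col18a1, whose fragment endostatin limits vessel growth, came nearest at 0.42 ± 0.14 (edgeR adjusted p = 0.0579), with 5.13, 6.14 and 9.86 CPM in APP/Tau mice and 3.76, 4.71 and 7.84 CPM in controls. Col6a1, a chain of the beaded filaments, gave 0.37 ± 0.21 (edgeR adjusted p = 0.255). It reached 32.6 CPM in APP/Tau naive replicate 4 and 23.8 CPM in control trained replicate 4, while the medians were 12.2 CPM in APP/Tau mice and 11.6 CPM in controls.

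The neuronal collagens did not pass. Col25a1 measured 54.0, 86.2 and 95.5 CPM in APP/Tau hippocampi and 75.1, 85.7 and 92.5 CPM in control hippocampi, a change of -0.06 ± 0.08 (edgeR adjusted p = 0.624, 95% interval -0.21 to 0.08). The lowest value, 54.0 CPM, belongs to APP/Tau trained replicate 1, which was the highest library for Col16a1. Col19a1, made by interneurons in mouse hippocampus, measured 17.3, 19.8 and 28.5 CPM in APP/Tau mice and 18.5, 19.9 and 27.1 CPM in controls (0.00 ± 0.08, edgeR adjusted p = 0.982).

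Both APP/Tau libraries that most often held the highest collagen level were also rich in glial markers. Astrocyte markers (6 genes) sum to 6836, 6394 and 5280 CPM in APP/Tau naive replicate 5, trained replicate 1 and trained replicate 3, to between 1543 and 2892 CPM in the other 6 APP/Tau hippocampi and to 1175 to 1385 CPM in controls. Microglial markers (8 genes) sum to 1300, 1101 and 1065 CPM in the same 3 libraries, to 308 to 565 CPM in the other 6, and to 236 to 291 CPM in controls. All 8 microglial and all 6 astrocyte markers rose, where 7.27% of all genes rose and 3.80% fell. Neuron markers were lower than in every control in APP/Tau naive replicate 5 and trained replicate 1, but not in trained replicate 3. The 8 hippocampal neuron genes sum to 588, 522 and 779 CPM in these libraries, against 750 to 1273 CPM in controls, and 2 of the 8 fell. Over all 9 APP/Tau hippocampi the sum had a median of 823 CPM and a highest value of 926 CPM, against a control median of 1008.5 CPM. Lower sums were thus not confined to the libraries rich in glial markers. APP/Tau trained replicate 1 was the highest of 20 hippocampal libraries in 15 of the 44 collagen genes, and APP/Tau naive replicate 5 in 6. Relative to the mean, the SD between hippocampal libraries was larger in APP/Tau mice than in controls for 29 of 44 genes. Its median was 34.0% in APP/Tau mice and 24.98% in controls. In the BLA it was larger in APP/Tau mice for 18 of 44 genes, with medians of 29.0% in APP/Tau mice and 37.1% in controls. The share over all genes was not computed. In bulk tissue, more cells of a type and more RNA per cell cannot be told apart, and the part of glial cells and neurons in the collagen values was not tested.

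Meningeal fibroblasts are the main makers of interstitial collagen at the brain surface, and their 14 markers, which hold no collagen, sum to 93.0, 128 and 233 CPM (lowest, median, highest) in APP/Tau hippocampi and to 76.8, 107 and 140 CPM in controls. 2 of the 14 rose, beside 7.27% of all genes. Aebp1, which encodes a collagen-binding protein, rose by 1.16 ± 0.25 (edgeR adjusted p = 0.00680) and stood at 31.6 ± 19.8 CPM in APP/Tau mice (SD, n = 9) against 14.2 ± 2.51 CPM in controls (SD, n = 11). Aldh1a2, a retinoic acid synthase, rose by 0.62 ± 0.18 (edgeR adjusted p = 0.0346). The proteoglycan genes Dcn and Ogn gave 0.08 ± 0.13 and -0.19 ± 0.20 (edgeR adjusted p = 0.710 and 0.574). No marker of any list was at 0 in all libraries. With the mean log2 CPM of these 14 markers as a covariate, 468 genes in all and 1 collagen gene, Col16a1, passed in the hippocampus; Col16a1 then gave 0.716 (edgeR adjusted p = 0.032). Of the vascular markers, 3 of 10 endothelial and 2 of 10 mural genes rose, again beside 7.27% of all genes. No choroid plexus marker (0 of 10) passed, and their sums overlapped widely, from 272 to 1502 CPM in APP/Tau mice and from 234 to 1050 CPM in controls. The part of these cells in the collagen values was not tested beyond the covariate.

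**Figure D3:**
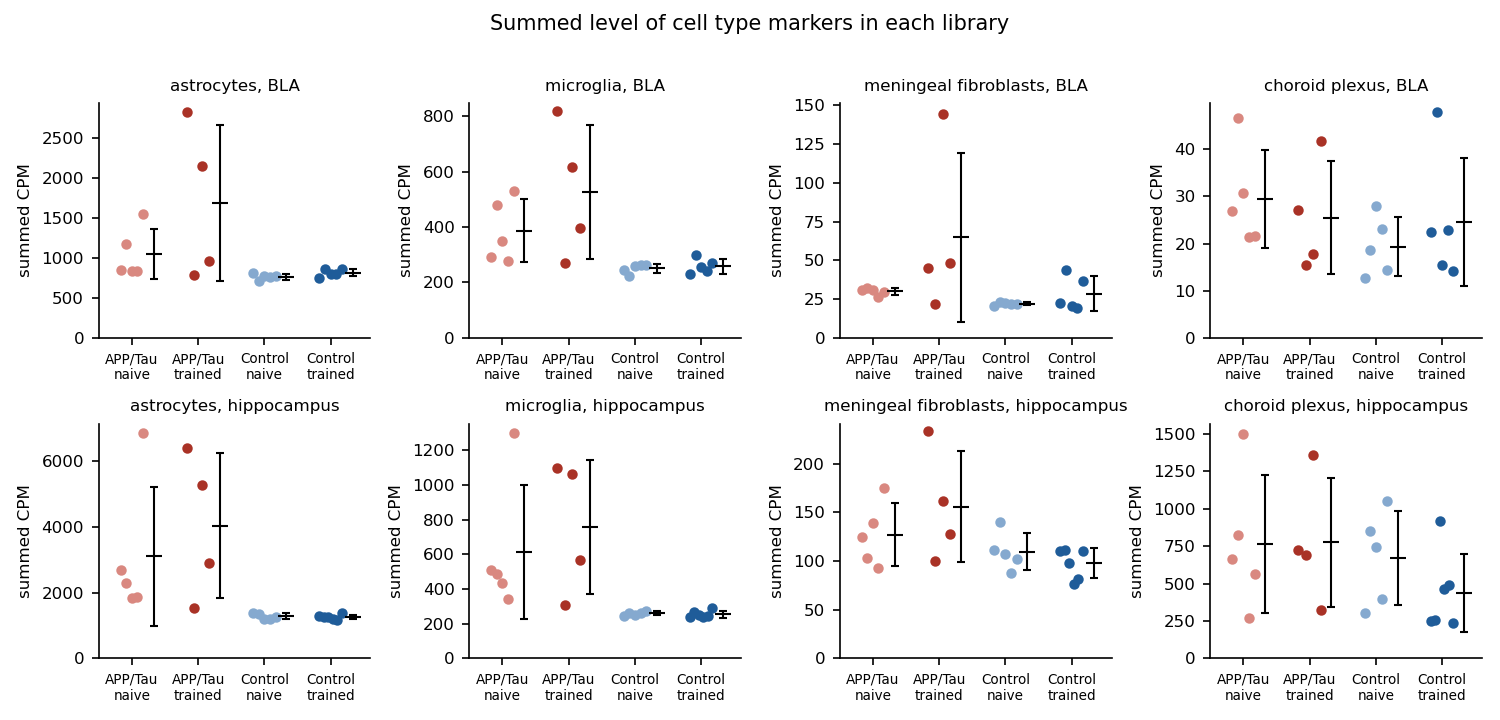
Summed CPM of markers for astrocytes, microglia, meningeal fibroblasts and choroid plexus, 1 point per library, in the BLA (top) and the hippocampus (bottom), with group mean and SD. In the hippocampus 3 APP/Tau libraries hold 5280 to 6836 CPM of astrocyte markers, while controls hold 1175 to 1385 CPM.

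Split by training, the hippocampal genotype effect passed in trained mice for 5 collagen genes (11.4% of 44, beside 2.80% of all genes tested, 2.65% up and 0.143% down) and in naive mice for none (beside 0.202% of all genes tested, 0.109% up and 0.0931% down; DESeq2 called 744 genes in naive mice). In trained mice, Col16a1 rose by 1.14 ± 0.23, Col4a4 by 1.25 ± 0.28, Col9a2 by 0.77 ± 0.20, Col9a3 by 0.81 ± 0.21 and Col4a6 by 1.11 ± 0.30 (edgeR adjusted p = 0.0125, 0.0213, 0.0427, 0.0438 and 0.0498). In naive mice the smallest p values belonged to Col5a3 (0.77 ± 0.25), Col16a1 (0.69 ± 0.23) and Col6a1 (0.76 ± 0.30), with edgeR adjusted p = 0.161, 0.170 and 0.234. The trained group holds 4 APP/Tau mice. Of the 20 fits that each leave out 1 hippocampal library, the call ended in 15 for Col4a6, 13 for Col9a2, 12 for Col9a3, 4 for Col4a4 and 2 for Col16a1. Without trained replicate 1, or without trained replicate 3, none of the 5 calls in trained mice remains. With limma-voom 0 collagen calls were made, and without the libraries rich in 18S RNA 1 was left. Over all genes, limma-voom called 35 in trained mice, and 227 passed without the libraries rich in 18S RNA. The difference between the trained and the naive effect was tested as an interaction and passed for 0 of 44 collagen genes (beside 0% of all 25791 genes; 1005 of them had an unadjusted p below 0.05), so the effect is not shown to differ with training. The smallest interaction p values belonged to Col14a1 (1.04 ± 0.34), Col4a3 (1.33 ± 0.59) and Col4a6 (0.96 ± 0.43), all with edgeR adjusted p = 0.984.

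Fear conditioning itself changed no collagen gene past the threshold 1 h after the shock, in either tissue or genotype. In the hippocampus 0 of 44 passed in APP/Tau mice and 0 of 44 in controls, beside 0% of all genes in both (1184 and 624 genes had an unadjusted p below 0.05 by edgeR, and DESeq2 called 2 and 0 genes). The smallest p values in APP/Tau hippocampus were those of Col14a1 (0.72 ± 0.25), Col16a1 (0.59 ± 0.24) and Col28a1 (0.98 ± 0.42), each with edgeR adjusted p = 0.986. In control hippocampus they were those of Col4a4 (-0.66 ± 0.27), Col8a1 (-0.83 ± 0.36) and Col18a1 (-0.42 ± 0.19), each with edgeR adjusted p = 1.00. In the BLA 0 of 44 passed in APP/Tau mice, 0 of 44 in controls and 0 of 44 in the interaction, again beside 0% of all 23168 genes (by edgeR 1356, 484 and 894 genes had an unadjusted p below 0.05, and DESeq2 called 14, 2 and 0). Col25a1 had the smallest p in APP/Tau BLA at -0.39 ± 0.14 (edgeR adjusted p = 0.794), followed by Col6a2 at -0.52 ± 0.20 and Col8a1 at 0.91 ± 0.38 (both 0.841). In control BLA the leading genes were Col4a5 (0.60 ± 0.29), Col6a6 (1.17 ± 0.58) and Col5a3 (-0.72 ± 0.37), with edgeR adjusted p = 1.00 for each.

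In the BLA 1 collagen gene rose in APP/Tau mice and none fell, 2.27% of 44 beside 1.18% of all 23168 genes tested (0.997% up and 0.181% down). This gene was Col9a3, which had 10.9, 14.3, 12.5, 7.45 and 12.2 CPM in naive APP/Tau mice and 15.1, 8.39, 12.2 and 14.1 CPM in trained ones. Controls had 8.98, 7.80, 8.99, 8.32 and 7.01 CPM when naive and 6.77, 10.1, 7.85, 9.11 and 5.29 CPM when trained. 7 of 9 APP/Tau libraries lay above the highest control. Col9a3 rose by 0.57 ± 0.13 (edgeR adjusted p = 0.0434), but the call ends in 16 of the 19 fits that each leave out 1 library. It ends with voom and with a replicate block too, where 64 and 44 of all genes passed. Tcfl5, on the opposite strand, gave -0.11 ± 0.18 in the BLA (edgeR adjusted p = 0.803). Leaving out APP/Tau trained replicate 2 gives 8 collagen calls in the BLA, and leaving out control trained replicate 2 gives 5. How many of all genes passed in these fits is not given here, so a gain particular to collagen genes is not shown.

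Across the family, 28 of 44 genes had a BLA fold change above 0. The median of the 44 was 0.19, beside 0.007 over all genes tested. With a covariate for the meningeal or for the striatal markers the collagen median was 0.089 or 0.104. Col16a1 had 8.91, 11.2 and 18.8 CPM (lowest, median, highest) in APP/Tau BLA and 4.71, 8.21 and 11.3 CPM in control BLA, a change of 0.57 ± 0.15 that just missed the threshold (edgeR adjusted p = 0.0554). Col1a1 gave 0.57 ± 0.22 and Col1a2 0.35 ± 0.15 (edgeR adjusted p = 0.170 and 0.214), and Col3a1, Col4a1, Col4a2, Col6a1, Col18a1 and Col19a1 lay between -0.21 and 0.23. Col25a1 went the other way. It had 127, 116, 110, 126 and 75.5 CPM in naive APP/Tau BLA, 67.4, 99.2, 79.0 and 92.8 CPM in trained APP/Tau BLA, 96.6, 120, 107, 123 and 118 CPM in naive controls and 121, 110, 128, 105 and 138 CPM in trained controls. The trained APP/Tau libraries all lie below the trained controls, but the change among trained mice, -0.51 ± 0.14, did not pass (edgeR adjusted p = 0.185), nor did the averaged change of -0.27 ± 0.09 (edgeR adjusted p = 0.135). The interaction for Col25a1 was -0.48 ± 0.19 (edgeR adjusted p = 0.949).

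No collagen gene passed in naive BLA alone (beside 0.0388% of all genes tested, 0.0129% up and 0.0259% down), where Col2a1 led with 0.95 ± 0.25, followed by Col4a5 with 0.96 ± 0.29 and Col6a6 with 1.52 ± 0.58 (edgeR adjusted p = 0.260, 0.262 and 0.302). None passed in trained BLA alone (beside 0.0432%, 0.0173% up and 0.0259% down), where Col16a1 led with 0.84 ± 0.21 (edgeR adjusted p = 0.160). Marker lists moved in the BLA too. All 8 microglial markers rose, and the astrocyte sum was highest in APP/Tau trained replicate 1 at 2837 CPM (1 of 6 markers rose). In the averaged genotype effect 0.997% of all genes rose. Meningeal markers sum to 21.7, 31.0 and 145 CPM (lowest, median, highest) in APP/Tau BLA and 18.9, 22.0 and 43.8 CPM in controls, with 0 of 12 tested genes past the threshold. Among these markers Dcn had by far the largest SD in APP/Tau BLA, 17.3 ± 35.8 CPM (SD, n = 9), beside an SD of 38.2 CPM for the sum. The wide range of the sum thus rests mostly on Dcn. Striatal and central amygdala markers sum to 876, 1735 and 4780 CPM in APP/Tau BLA and 510, 1246 and 4243 CPM in controls (0 of 12 passed, median change 0.63), while the 6 BLA neuron markers had a median change of -0.58 (0 of 6 passed). A covariate for the meningeal or for the striatal markers leaves 0 collagen calls in the BLA. Over all 23168 genes tested, the averaged genotype calls went from 273 to 11 with the meningeal covariate and to 31 with the striatal one. Beyond these covariates, the part of tissue makeup was not tested.

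Whether the genotype effect differs between the tissues was tested over all 39 libraries, and 0 of 44 collagen genes passed (beside 0.0262% of 26725 genes, 0.00748% up and 0.0187% down). The smallest p values belonged to Col5a2 (-0.89 ± 0.27), Col18a1 (-0.53 ± 0.18) and Col6a2 (-0.46 ± 0.20), where a negative value means a lower effect in the BLA than in the hippocampus (edgeR adjusted p = 0.326, 0.385 and 0.534). The calls made in the hippocampus and not in the BLA are therefore not shown to be particular to it.

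**Figure D4:**
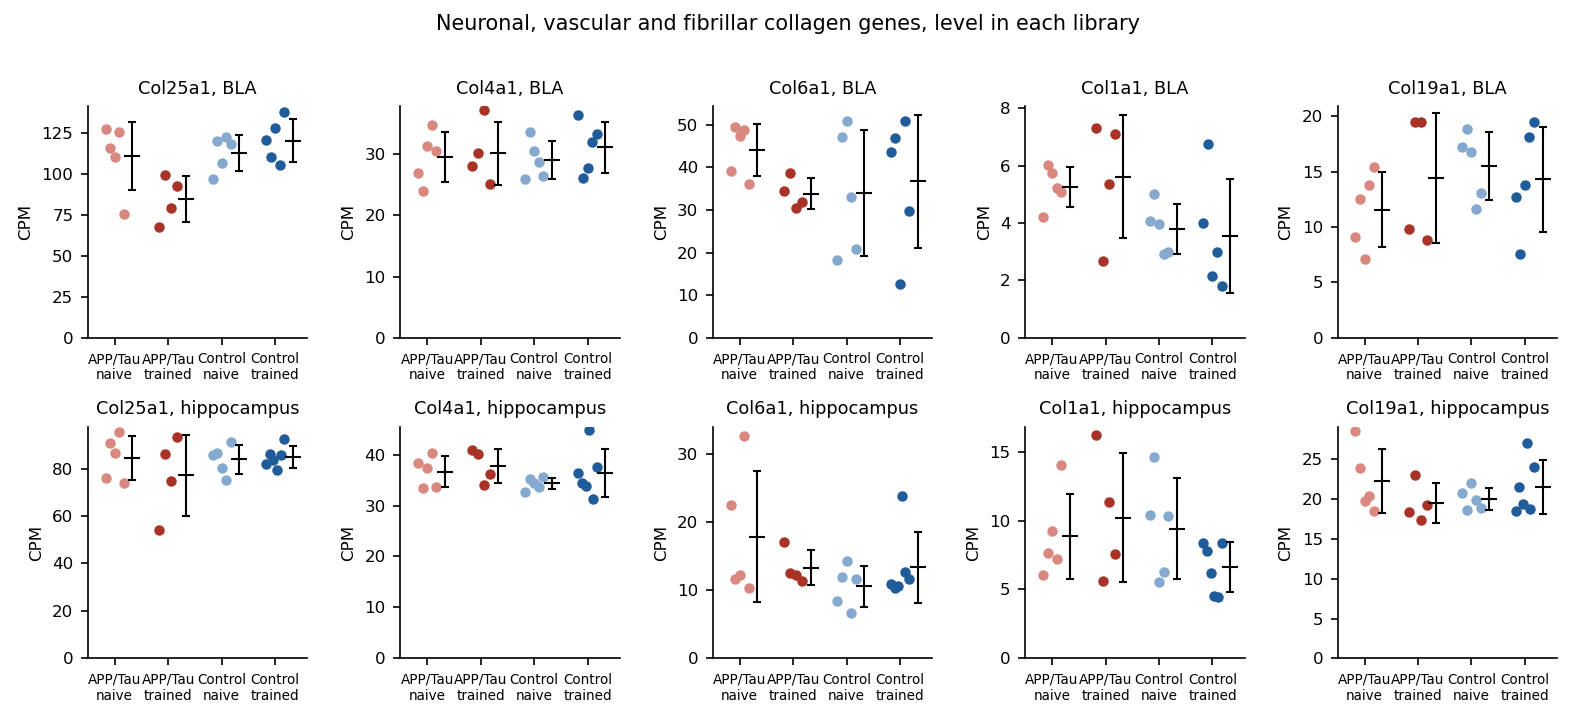
CPM of Col25a1, Col4a1, Col6a1, Col1a1 and Col19a1 in each library of the BLA (top) and the hippocampus (bottom), by genotype and training, with group mean and SD. Col25a1 lies between 67.4 and 138 CPM in the BLA and Col4a1 between 31.2 and 44.8 CPM in the hippocampus, with the genotypes overlapping.

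Most of the family differed between the tissues. Between the BLA and the hippocampus 34 collagen genes passed, 77.3% of 44 beside 64.5% of all 26725 genes tested. In the BLA 9 were higher (20.5%, beside 30.0% of all genes) and 25 were lower (56.8%, beside 34.5%). The median difference was -0.46, BLA minus hippocampus, beside -0.05 over all genes. Tissue, RNA input, dissection and sequencing depth change together in this design and cannot be told apart. A mouse can also have given both tissues, and the test treats the libraries as independent.

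The 3 chains of the classical type VI trimer stood higher in the BLA. Col6a1 had 37.6 ± 11.6 CPM in the BLA (SD, n = 19) and 13.6 ± 5.99 CPM in the hippocampus (SD, n = 20), Col6a2 had 11.6 ± 2.73 CPM in the BLA and 6.32 ± 1.60 CPM in the hippocampus, and Col6a3 had 4.42 ± 1.13 CPM in the BLA and 2.71 ± 0.623 CPM in the hippocampus. The differences were 1.47 ± 0.16, 0.84 ± 0.10 and 0.70 ± 0.12 (edgeR adjusted p = 4.8e-10, 3.9e-09 and 4.0e-06). The paralogous chains Col6a4 and Col6a5 did not differ past the threshold and Col6a6 was lower in the BLA (-0.95 ± 0.33, edgeR adjusted p = 0.0111). Col6a4 varied widely between mice, from 0.0813 to 5.75 CPM over the 20 hippocampal libraries.

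Of the 4 transmembrane collagens, Col23a1 and Col25a1 were higher in the BLA, Col13a1 was lower (-1.07 ± 0.16, edgeR adjusted p = 3.2e-07) and Col17a1 did not pass (-0.54 ± 0.32, edgeR adjusted p = 0.132). Col23a1 had 16.98 ± 4.13 CPM in the BLA (SD, n = 19) and 7.98 ± 1.83 CPM in the hippocampus (SD, n = 20), a difference of 1.11 ± 0.11. Col25a1 had 109 ± 19.5 CPM in the BLA and 82.4 ± 9.18 CPM in the hippocampus, a difference of 0.38 ± 0.06 (edgeR adjusted p = 5.0e-11 for Col23a1 and 1.5e-06 for Col25a1). Col26a1 was higher by 0.53 ± 0.12 (edgeR adjusted p = 0.000299).

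Fibrillar, type IV, multiplexin and most FACIT chains were lower in the BLA or did not pass. Col8a2, a short chain collagen known from the basement membrane of the corneal endothelium, showed the largest difference in the family. It had 0.299 ± 0.149 CPM in the BLA (range 0.0763 to 0.697) and 5.60 ± 2.87 CPM in the hippocampus (range 2.06 to 12.2), so the tissues did not overlap, and the difference was -4.22 ± 0.24 (edgeR adjusted p = 9.4e-18). Col5a1 (-2.06 ± 0.17) and Col4a5 (-1.39 ± 0.13) were the other collagen genes whose tissues did not overlap. How often the tissues did not overlap over all genes was not counted, so this is not shown to set these genes apart. Among collagen genes with a mean of at least 1 CPM over both tissues, Col8a1 at -1.30 ± 0.20 and Col4a6 at -1.26 ± 0.18 came next. Below that mean, Col4a4 differed by -1.72 ± 0.19 and Col9a1 by -1.32 ± 0.23. The short chain gene Col10a1, also below it, was higher in the BLA by 1.78 ± 0.46. Of the interstitial chains, Col1a1, Col1a2 and Col3a1 differed by -0.94 ± 0.16, -1.09 ± 0.13 and -1.08 ± 0.20. Col18a1 differed by -0.88 ± 0.09 and Col19a1 by -0.57 ± 0.11. In all, 8 of 11 fibrillar, 5 of 6 type IV, 2 of 2 multiplexin and 6 of 9 FACIT genes were lower in the BLA, and of these groups 1 gene, Col9a2, was higher.

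Of the vascular pair, Col4a2 had 33.4 ± 5.33 CPM in the BLA (SD, n = 19) and 32.8 ± 3.80 CPM in the hippocampus (SD, n = 20), a difference of 0.02 ± 0.06 (edgeR adjusted p = 0.759), and Col4a1 was lower in the BLA by 0.26 on the log2 scale (edgeR adjusted p = 4.8e-05). Choroid plexus markers sum to 12.7 to 48.0 CPM in BLA libraries and 234 to 1502 CPM in hippocampal libraries. Meningeal markers sum to 18.9 to 145 CPM in the BLA, where Dcn makes up most of the spread in APP/Tau mice, and to 76.8 to 233 CPM in the hippocampus. The relation of these sums to the collagen levels was not measured, and their part in the tissue differences was not tested.

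**Figure D5:**
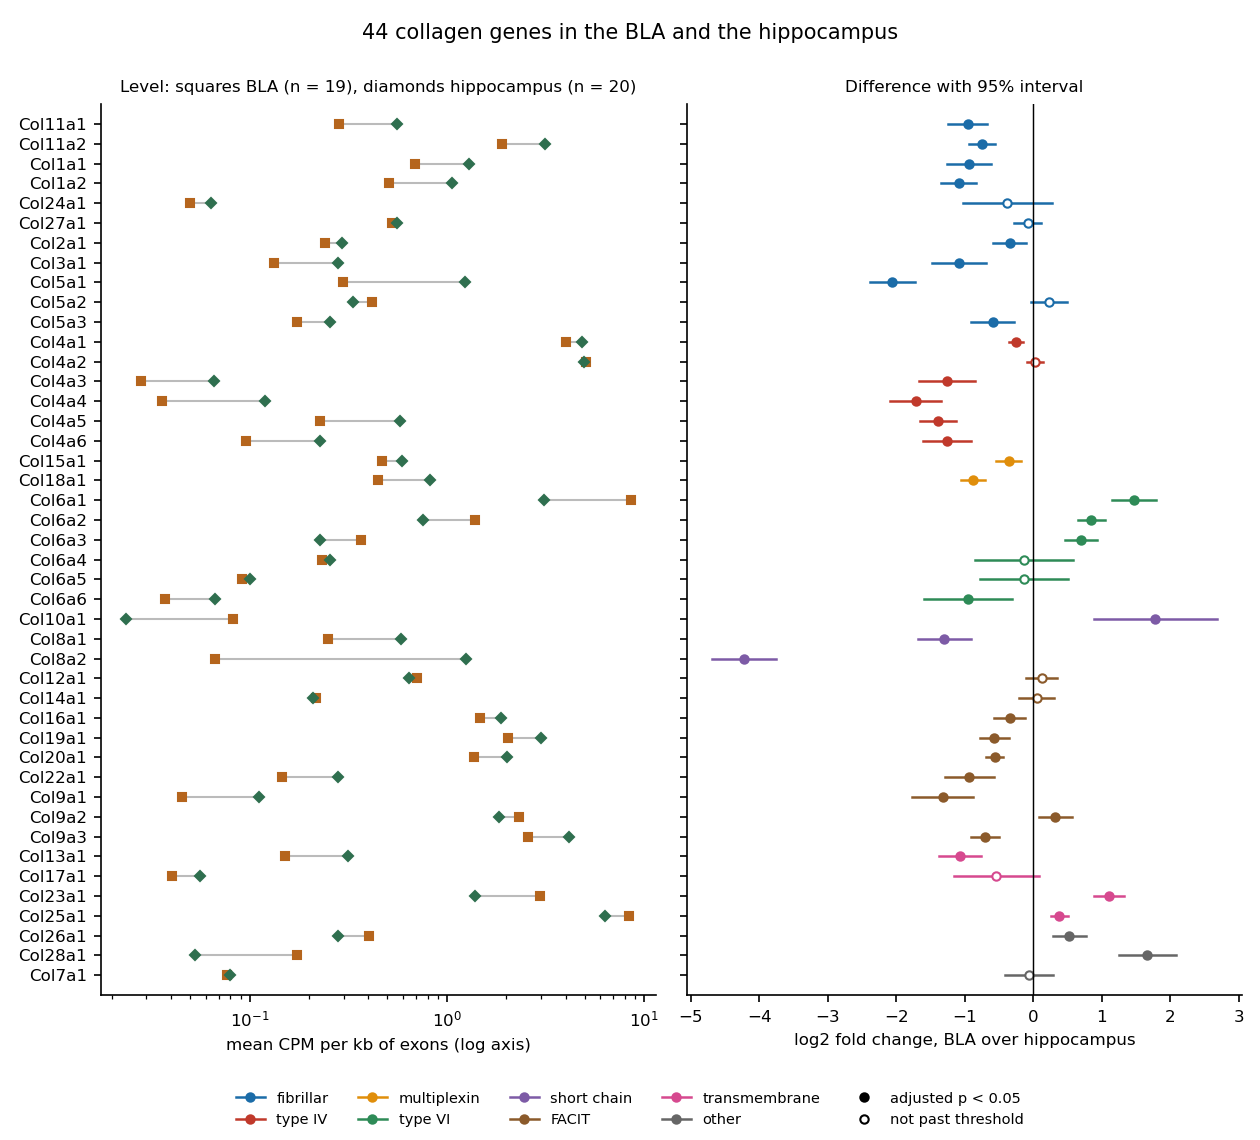
Left, mean CPM per kb of exons of each collagen gene on a log axis, in the BLA (squares) and the hippocampus (diamonds); right, the log2 fold change of the BLA over the hippocampus with its 95% interval, coloured by collagen type, filled where the adjusted p is below 0.05. Col8a2 lies farthest to the left at -4.22, and Col6a1, Col6a2 and Col6a3 lie to the right of 0.

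Set per length, levels differed widely between the genes of the family. The length is that of all annotated exons of a gene, so the order depends on the annotation. Per kb of exons (GENCODE M21), Col6a1 led the BLA with 8.58 CPM per kb, followed by Col25a1 with 8.43, Col4a2 with 5.05, Col4a1 with 4.04 and Col23a1 with 2.96. In the hippocampus the order was Col25a1 (6.37 CPM per kb), Col4a2 (4.95), Col4a1 (4.82), Col9a3 (4.15) and Col11a2 (3.16). Col6a1 and Col25a1 in the BLA, and Col4a2 and Col4a1 in the hippocampus, are neighbours in this order whose means differ by less than their SD between libraries. The interstitial chain Col1a1 reached 0.689 CPM per kb in the BLA and 1.30 in the hippocampus. Control libraries were most alike in Col25a1, whose SD was 10.4% of the mean in the BLA and 6.06% in the hippocampus, and least alike in Col10a1, with 81.1% in the BLA and 92.1% in the hippocampus.

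The levels of 3 pairs of chains that share a triple helix were compared from mouse to mouse, and each pair varied together. Over deviations from the group means, Col1a1 and Col1a2 had r = 0.82 (Spearman rho 0.71) over 19 BLA libraries and r = 0.81 (rho 0.81) over 20 hippocampal libraries. Col4a1 and Col4a2 had r = 0.76 (rho 0.74) in the BLA and r = 0.80 (rho 0.80) in the hippocampus, and Col6a1 and Col6a2 had r = 0.95 (rho 0.88) in the BLA and r = 0.75 (rho 0.72) in the hippocampus. Of these 6 relations the adjusted permutation p for r was at most 0.0024 and for rho at most 0.006 (100000 permutations within groups, 2-sided, Benjamini-Hochberg). Without the 2 libraries farthest from the median, r lay between 0.65 and 0.88. Col4a1 and Col4a2 share 22 exon bases on opposite strands, so a few reads could count for either.

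The genes that make, cut and sense collagen were followed in the averaged genotype effect. Of 24 genes for collagen synthesis, 6 rose and 2 fell in the hippocampus, where 7.27% of all genes rose and 3.80% fell; in the BLA these shares were 0.997% and 0.181%. P4ha3, a prolyl 4-hydroxylase subunit, rose by 1.14 ± 0.26 and stood at 6.46 ± 4.31 CPM in APP/Tau mice (SD, n = 9) against 2.93 ± 0.417 CPM in controls (SD, n = 11). Sec24d, a coat protein needed to export procollagen, fell by 0.55 ± 0.15 on the log2 scale. P3h4, a partner of lysyl hydroxylase, rose by 0.46 ± 0.13 and P4hb, the beta subunit of prolyl 4-hydroxylase, by 0.22 ± 0.07 (edgeR adjusted p = 0.0101, 0.0244, 0.0267 and 0.0383 in this order). In the BLA Sec24d alone passed, with a change of -0.77 ± 0.17 and levels of 15.2 ± 4.89 CPM in APP/Tau mice against 26.1 ± 6.05 CPM in controls (edgeR adjusted p = 0.0403).

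Of 15 genes for processing and crosslinking, the transglutaminase Tgm2 rose in the hippocampus (0.54 ± 0.14, edgeR adjusted p = 0.0225), and the lysyl oxidase relative Loxl2 passed in the BLA (1.98 ± 0.46, edgeR adjusted p = 0.0412), where it had 0.211 ± 0.110 CPM in APP/Tau mice and 0.0525 ± 0.0353 CPM in controls. Loxl2 was near 0 in controls, so it may have passed the filter on low counts only through APP/Tau libraries. Of 15 genes tested for breakdown and its inhibition, 4 rose in the hippocampus and 11 did not pass, beside 7.27% of all genes up; of the 4, Timp1 and Timp3 encode inhibitors. Mmp16 and Mmp17, membrane-type metalloproteinase genes, gave -0.17 ± 0.08 and -0.20 ± 0.07 (edgeR adjusted p = 0.141 and 0.0701). The macrophage elastase gene Mmp12 rose by 5.38 ± 0.73, with 1.07 ± 1.33 CPM in APP/Tau mice and 0.0270 ± 0.0463 CPM in controls, and the inhibitor Timp1 rose by 2.65 ± 0.47. Mmp2, the gelatinase gene, rose by 0.64 ± 0.17 and Timp3, the matrix-bound inhibitor, by 0.26 ± 0.08 (edgeR adjusted p = 0.000254, 0.00177, 0.0251 and 0.0349 in this order). Mmp12 was also near 0 in controls, so it too may have passed the filter only through APP/Tau libraries. In the BLA 0 of 15 passed.

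Of 11 receptor genes tested, 5 rose in the hippocampus, beside 7.27% of all genes. Lair1, an inhibitory collagen receptor of immune cells, rose by 1.09 ± 0.18, Itga2, the collagen-binding integrin subunit, by 1.21 ± 0.27, Ddr1, a receptor tyrosine kinase for collagen, by 0.59 ± 0.14 and Itgb1, the common integrin beta subunit, by 0.33 ± 0.09 (edgeR adjusted p = 0.00123, 0.00969, 0.0110 and 0.0200). Ddr1 rose in the BLA too, by 0.40 ± 0.10 (edgeR adjusted p = 0.0467), with 69.1 ± 11.7 CPM in APP/Tau mice against 52.4 ± 7.19 CPM in controls. Of 18 basement membrane partners, 3 rose in the hippocampus and 0 in the BLA, beside 7.27% of all genes in the hippocampus and 0.997% in the BLA. Sparc, a collagen-binding matrix protein, rose by 0.54 ± 0.09 in the hippocampus, where it had 287 ± 59.1 CPM in APP/Tau mice and 197 ± 23.4 CPM in controls, and the laminin genes Lama4 and Lamb2 rose by 0.36 ± 0.09 and 0.47 ± 0.13 (edgeR adjusted p = 0.00153, 0.0202 and 0.0292).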

How the data were processed

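The authors deposited whole-number counts per gene symbol without normalization, for 19 BLA and 20 hippocampal libraries. Reads had been trimmed with Trimmomatic 0.39, and the build was mm39, per the submitters' processing notes. How reads were aligned, assigned to genes and stranded, and with which annotation, is not given in the sources used here. Small counts (1 to 20) are even in 58.5 to 69.0% of cases in BLA libraries and 54.3 to 62.7% in hippocampal ones, so they may rest on fewer fragments than their size. No 2 libraries were duplicates.

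The members, gene lists and comparisons were chosen with earlier results of these data known. Genes kept by filterByExpr (minimum count 10, minimum total 15) were scaled by TMM and tested with the quasi-likelihood F test of edgeR 4.0.16 in R 4.3.3, checked on simulated data, in 1 fit per tissue and 1 over both, with Benjamini-Hochberg adjustment over all genes. Each standard error is the log2 fold change, without its sign, divided by the root of F; 95% intervals span 1.96 of them on either side.

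Described with values were Col1a1, Col1a2, Col3a1, Col4a1, Col4a2, Col6a1, Col18a1, Col19a1, Col25a1, collagen genes past the threshold (the 3 smallest p where none passed), the 5 largest tissue differences each way at a mean of at least 1 CPM, and up to 4 called genes per related list. Col9a1, Col6a4, Col6a5, Col10a1, Col11a2, Mmp16, Mmp17, Tcfl5, and between tissues Col4a4, Col6a6, Col13a1 and Col17a1, as well as Prnp and single markers were chosen after their values were seen. Alternatives were DESeq2 1.42.0, limma-voom (limma 3.58.1), RLE factors, other filters, a replicate block, marker covariates, only the 2 groups compared, leaving out each library and, added after the data were seen, leaving out the libraries rich in 18S RNA. Same-numbered BLA and hippocampal libraries had a mean correlation of deviations of 0.27 (lowest 0.04), beside -0.06 for other pairs of the same group. No pairing was used in the main fits. Exon lengths and coding sequences come from GENCODE M21 (GRCm38). Col21a1 is not analysed here.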

Additional observations from a re-analysis of the deposited data

Results flagged for a closer look

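In control trained replicate 4 of the hippocampus, Col6a1 stood at 23.8 CPM, far above the other 5 control trained libraries, which held 10.3 to 12.6 CPM. The group mean was 13.3 CPM with this library and 11.2 CPM without it. This was 1 such library among 136 groups of collagen genes examined, and chance flags about 1 in 20 groups.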

How the results depend on the processing

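BLA libraries hold a median of 59.3 M counts and hippocampal ones 109.9 M, and the effect of this difference on the calls was not tested. Hippocampal collagen calls over naive and trained mice numbered 7, and 11 with DESeq2 and 1 with the meningeal covariate. They numbered 4 to 10 when each library was left out, and the low of 4 came without APP/Tau trained replicate 1 or 3. Over all 25791 genes the calls numbered 2854, and 4335 with DESeq2 and 468 with the meningeal covariate. In trained mice alone, 5 calls became 8 with DESeq2, 0 with limma-voom and 2 with only the 2 groups compared. They became 0 with the meningeal covariate, 1 without the libraries rich in 18S RNA and 0 to 9 when each library was left out. All genes called there numbered 721 in the main fit, 1590 with DESeq2, 35 with limma-voom and 570 with only the 2 groups compared. With the meningeal covariate 23 genes passed, and without the libraries rich in 18S RNA 227 passed. In the BLA 1 call became 4 with DESeq2, 0 with limma-voom and 2 with a filter at a mean of 1 CPM. It became 0 with either marker covariate and 0 to 8 when each library was left out. All genes called in the BLA numbered 273 in the main fit, 1191 with DESeq2, 64 with limma-voom and 359 with the filter. With the meningeal covariate 11 genes passed and with the striatal covariate 31. DESeq2 made 1 collagen call in naive and 2 in trained BLA, where edgeR made 0. Over all genes DESeq2 called 108 and 196 there, and edgeR 9 and 10. Leaving out libraries gave 0 to 3 collagen calls in trained BLA. For all fits that leave out 1 library, the counts over all genes are not given here. The cause was not tested. Tissue calls ran from 33 to 34. Within a tissue, same-numbered libraries of different groups had a mean correlation of deviations of -0.04 in the BLA and 0.07 in the hippocampus. Between tissues, same-numbered libraries of a group had 0.27, beside -0.06 for other pairs of a group. Whether they come from the same mouse is not stated. The title number as a replicate block gave 7 and 5 collagen calls in the hippocampus (averaged, trained) and 0 in the BLA (averaged). Between tissues the block was the group together with the title number, and 34 collagen genes passed. Over all genes, 4145, 1456, 44 and 17637 passed with these blocks. Without a block the collagen counts were 7, 5, 1 and 34, beside 2854, 721, 273 and 17230 of all genes.

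Genes whose small, uncalled fold changes turned sign were these. With the meningeal covariate, the hippocampal values became -0.106 for Col1a1, -0.0302 for Col1a2, 0.0346 for Col4a2 and 0.0164 for Col25a1, and the BLA values -0.219 for Col1a1, -0.226 for Col1a2, -0.204 for Col3a1, 0.0129 for Col4a1, 0.0492 for Col4a2, -0.179 for Col6a1 and 0.345 for Col19a1. With the striatal covariate Col4a1 gave 0.0421 and Col6a1 -0.00451 in the BLA. Col19a1 in the hippocampus gave -0.0283 with the replicate block and -0.00983 without the libraries rich in 18S RNA. Leaving out libraries gave -0.0287 to 0.0330 for Col4a2, -0.0483 to 0.0424 for Col19a1 and -0.110 to 0.00763 for Col25a1 in the hippocampus, -0.0687 to 0.0280 for Col4a1 in the BLA, and -0.00810 to 0.0414 for Col4a2 between tissues.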
